A study of Oryza sativa Japonica Group with 4 samples.

Results

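The genes described here are the named aquaporins, sugar transporters and invertases of rice, read in the lamina joint of the mutant ila1 and of its wild type. They were found by name: a gene counted if its symbol or a RefSeq synonym, with a leading Os dropped, was PIP, TIP, NIP, SIP, SUT, SWEET, MST, CIN or INV followed by numbers. This gave 52 genes, of which 46 had at least 1 probe set paired with that gene alone, out of 17905 genes so paired on the array. Names that end in a letter, such as SWEET2A, do not meet the rule. The 46 genes were read by 55 of 57258 probe sets. The genes without a probe set of their own were PIP2-3, NIP1-2, NIP3-3, SWEET13, CIN5 and CIN6. Another 2 probe sets are paired with a member and a further gene together and were left out. The rule also caught 3 genes whose other names are those of another family: the bHLH transcription factor gene BHLH142, the starch synthesis gene FLO6 and the heat stress factor gene HSFA2C. They are given apart at the end, and the other 49 genes are the families meant by the rule.

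The lamina joint is the hinge between the blade and the sheath of a rice leaf and sets the leaf angle. Lamina joints were taken at the tillering stage from the japonica cultivar Zhonghua11 (ZH11, 2 arrays) and from ila1 (2 arrays), in which a gene for a kinase of the Raf type is affected and leaves stand at a larger angle. Both arrays of each genotype are labelled as biological replicates. The labels name the mutant but not its allele, and do not say how many plants went into a sample. Total RNA was read on the Affymetrix Rice Genome Array, which gives 1 signal (a deposited linear intensity) per probe set. In such bulk tissue, fewer cells of a type and less RNA per cell cannot be told apart. The arrays had median signals of 56.0 and 57.9 (ZH11) and 53.6 and 53.6 (ila1), and precision is limited by their number. Their mean signals were 345 and 346 (ZH11) and 302 and 305 (ila1). The correlation of log2 signals over probe sets was 0.995 within ZH11 and 0.983 within ila1. The lamina joint genes LG1, which makes the ligule and auricle boundary, BU1 and LIC, both of brassinosteroid response, were all above the filter on low values. None of the 3 passed. LG1 read 312 and 340 in ZH11 and 318 and 234 in ila1, which overlap. BU1 was lower on both ila1 arrays (188 and 208 against 140 and 184, limma adjusted p = 0.305). LIC was higher on both (110.2 and 102 against 165 and 140, unadjusted p = 0.0205, limma adjusted p = 0.0872).

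Aquaporins are membrane channels for water and small uncharged solutes. Plasma membrane intrinsic proteins (PIP) and tonoplast intrinsic proteins (TIP) carry water across the cell and vacuole membranes, nodulin 26-like intrinsic proteins (NIP) include channels for silicic and boric acid, and small basic intrinsic proteins (SIP) lie in internal membranes. Sucrose made in leaves leaves the cell through SWEET uniporters, is taken up with protons by SUT carriers, and is split by invertases in the wall (CIN), after which MST carriers take up the hexoses. In organs that bend or grow, water uptake and sugar supply together set turgor and cell expansion.

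Genotypes were compared with limma on log2(signal + 16), a scale that understates the change of low signals, over the 34355 probe sets above a filter that left out the lowest 40% by mean. Of the members, 44 probe sets of 36 genes passed this filter, and 11 probe sets did not. SUT4, SWEET4 and NIP2-1 fell in ila1 and TIP2-2 rose, at a limma adjusted p under 0.05. These 4 calls were 1 higher and 3 lower among 44 probe sets, or 9.09%. Over all tested probe sets 15.1% were called, 4.71% higher and 10.4% lower, so the members' share was not above the background. Both ila1 arrays lay above both ZH11 arrays for 12 of the 44 probe sets and below both for 11, against 26.4% and 40.6% of all tested probe sets. Without ila1 replicate 1, 20 member probe sets passed as higher and 5 as lower, beside 11.9% and 18.7% of all tested probe sets, and without ila1 replicate 2, 9 and 15 passed, beside 18.6% and 24.5%. None of the 44 passed without ZH11 replicate 1 or without ZH11 replicate 2, where 7 and 7 had an unadjusted p under 0.05 and where 0.064% and 0.332% of all tested probe sets passed. Fits with 1 array of a genotype take the spread from the other genotype, so the lone array is assumed to vary alike.

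Other scalings kept all 4 calls. After quantile normalization 4 member probe sets were higher and 3 lower, beside 8.52% and 8.33% of all tested probe sets. Scaled to hybridization controls, transcripts added by the array protocol, they were again 4 and 3, beside 8.67% and 6.83%. Median centring gave 1 and 3 (6.06% and 8.92% of all), a pseudocount of 64 also 1 and 3 (4.59% and 10.5%), no filter 3 and 3 of 55 (3.02% and 6.3%) and a replicate block 2 and 3 (4.49% and 9.53%). The log2 fold changes moved with the scaling. SWEET4 read -0.71 as deposited, -0.48 after quantile normalization and -0.49 when scaled to hybridization controls. In that order TIP2-2 read 0.55, 0.78 and 0.76, SUT4 -1.79, -1.57 and -1.58, and NIP2-1 -1.26, -1.15 and -1.06.

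**Figure D1:**
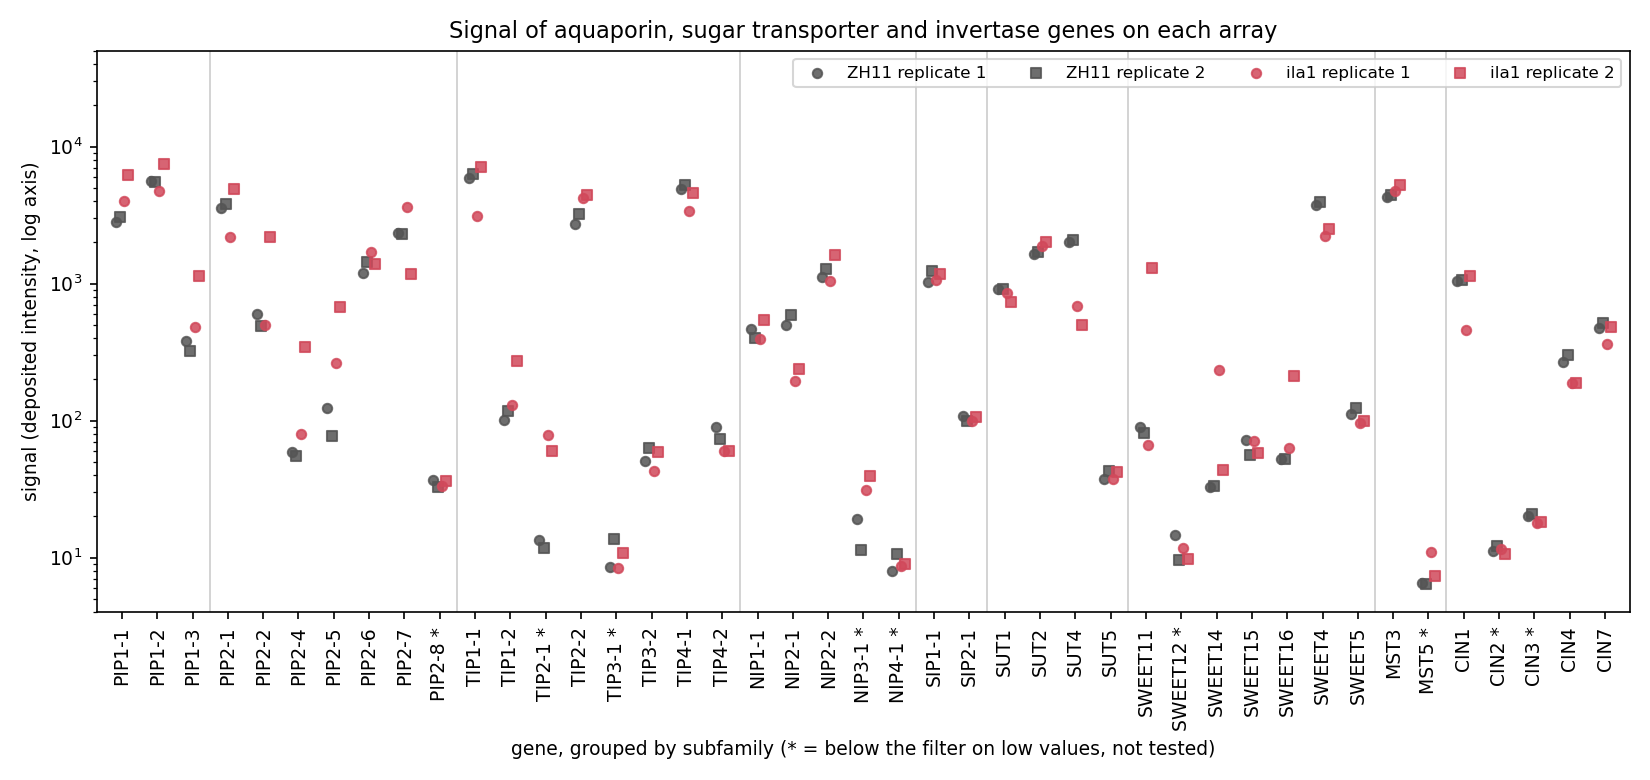
Signal of each gene on each of the 4 arrays (deposited intensity, log axis), 1 probe set per gene, grouped by subfamily. Grey points are ZH11 and red points ila1, circles are replicate 1 and squares replicate 2, and an asterisk marks genes below the filter. SUT4, SWEET4 and NIP2-1 have both red points below both grey points, whereas SWEET11 has red points at 66.4 and 1308.

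Among sucrose carriers, SUT4 (LOC4331221), a sucrose transporter, had the largest fall of any tested member. It read 2027 and 2091 in ZH11 against 683 and 497 in ila1. The genotypes were far apart, and the gap between them exceeded the gap within either. The fall was 3.46-fold, from 2059 ± 45.1 to 590.1 ± 132 (SD, n = 2 each), with a log2 fold change of -1.79 ± 0.18 (SE, limma adjusted p = 0.00666). SUT4 read between -1.57 and -2.02 with any array left out, and its call held under each other scaling. The other SUT genes did not pass. SUT1, which loads and retrieves sucrose along the phloem, read 910.3 and 911 in ZH11 and 846 and 739 in ila1 (log2 fold change -0.20 ± 0.12, limma adjusted p = 0.307). SUT2, a sucrose exporter of the vacuole, read 1638 and 1703 against 1873 and 2016 on its brighter probe set, and its 95% interval ran from -0.045 to 0.48. After quantile normalization that probe set passed as higher (log2 fold change 0.49, limma adjusted p = 0.0374). The weaker SUT2 probe set was lower on both ila1 arrays, at 75.0 and 75.9 against 66.1 and 71.0, and did not pass (log2 fold change -0.11, and -0.046 after quantile normalization). SUT5 lay between 37.2 and 43.0 on all 4 arrays. The difference of -1.79 in SUT4 stood beside differences of -0.20, 0.22 and -0.0125 in SUT1, SUT2 and SUT5.

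SWEET4 (LOC4329093), a hexose transporter known for sugar import into rice grains, fell 1.63-fold. It read 3771 and 3929 in ZH11 and 2213 and 2498 in ila1, without overlap. The means were 3850.1 ± 112 and 2356 ± 202 (SD, n = 2 each), and the log2 fold change was -0.71 ± 0.10 (limma adjusted p = 0.0165). SWEET5, a galactose transporter, read 111 and 123 against 96.6 and 99.6, and did not pass (limma adjusted p = 0.244). SWEET15, a sucrose exporter of the seed, overlapped between genotypes at 56.1 to 72.7, and SWEET12 lay below the filter at 9.68 to 14.6.

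3 SWEET genes were at a low, even level in ZH11 and high on 1 ila1 array. SWEET11 (also XA13), a sucrose exporter that Xanthomonas bacteria switch on to feed on rice, read 89.8 and 81.8 on the ZH11 arrays, 66.4 on ila1 replicate 1 and 1308 on ila1 replicate 2. SWEET14 (also Os11N3), another target of the same bacteria, was high on the other ila1 array, at 235 on replicate 1 and 43.4 on replicate 2, against 32.7 and 33.5 in ZH11. Its other probe set had the same order, at 189 and 36.2 against 29.1 and 26.4. In ZH11 both probe sets lay within or below the range of PIP2-8 (32.7 to 37.1), which was below the filter. SWEET14 was therefore tested only through its ila1 signal, and it counts in the SWEET median and in the gap counts below. SWEET16, a SWEET of the vacuole clade, read 52.5 and 52.7 in ZH11, 62.7 on ila1 replicate 1 and 213 on replicate 2. None of the 3 passed, with limma adjusted p of 0.391, 0.232 and 0.237. Their log2 fold changes of 1.70, 1.32 and 0.97 are means of 1 high and 1 low array, and the 95% interval of SWEET11 ran from -1.62 to 5.02. The only SWEET11 probe set is of the type marked s, which may read several near-identical transcripts. The median over the 6 tested SWEET genes was 0.49, beside -0.074 over all tested probe sets, and it was -0.056 without ila1 replicate 2, 0.081 without ila1 replicate 1 and 0.0080 with no filter on low values.

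MST3, a monosaccharide and proton carrier, read 4302 and 4407 in ZH11 and 4729 and 5252 in ila1. The genotypes did not overlap, but the difference of 0.19 ± 0.09 did not pass (limma adjusted p = 0.198). It passed as higher after quantile normalization (0.39, limma adjusted p = 0.0366) and with arrays scaled to hybridization controls (0.41, limma adjusted p = 0.0369). These scalings also moved the median of all tested probe sets, from -0.074 to 0.029 and to 0.11, so relative to all probe sets MST3 stood at 0.27 as deposited, 0.36 and 0.30. MST5, known from pollen, read 6.41 to 10.9 and was below the filter.

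No invertase passed. CIN4 came nearest, at 269.8 and 304 in ZH11 and 189 on both ila1 arrays, a 1.47-fold lower level (log2 fold change -0.56 ± 0.13, unadjusted p = 0.0078, limma adjusted p = 0.0509). CIN4 was further from the threshold after quantile normalization (-0.48, limma adjusted p = 0.0665) and with arrays scaled to hybridization controls (-0.36, limma adjusted p = 0.1345). CIN1, a cell wall invertase, read 1045 and 1068 in ZH11, 460.0 on ila1 replicate 1 and 1128 on ila1 replicate 2, so 1 ila1 array was low and the other matched ZH11. CIN7 read 476 and 519 against 363 and 485. The difference of CIN7 was -0.24, with a 95% interval from -0.69 to 0.22. CIN2 (also GIF1), known for grain filling, and its neighbour on the chromosome CIN3 were below the filter, at 10.7 to 12.1 and 17.8 to 20.7. The median of the 3 tested invertases was -0.54, and it was -0.033 without ila1 replicate 1.

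Enzymes on either side of these carriers were taken from a list of sucrose metabolism, and trehalose-phosphate phosphatases were read as a separate list. In sucrose metabolism 0 of 14 tested genes rose and 1 fell, and the list median was -0.0029, beside -0.074 over all tested probe sets. The gene that fell was FRK1, a fructokinase, which phosphorylates the fructose released by invertase. It read 1256 and 1359 in ZH11 and 352 and 278 in ila1 (log2 fold change -2.01 ± 0.16, limma adjusted p = 0.0042). No other tested gene of that list passed. Of 6 tested trehalose-phosphate phosphatase genes, whose substrate trehalose 6-phosphate is a signal of sucrose supply, 3 fell and 0 rose, where 10.4% of all tested probe sets fell and 4.71% rose. The list median was -1.04, beside -0.074 over all tested probe sets, and the list was chosen with earlier results known. TPP7 fell 3.19-fold, from 8011 and 7933 to 2362 and 2614 (limma adjusted p = 0.00238), and TPP1 3.90-fold, from 6251 and 6195 to 2271 and 1100.3 (limma adjusted p = 0.0257). TPP9 fell from 200.1 and 200.2 to 39.4 and 67.7 (limma adjusted p = 0.0135). The proton pump and other sugar transport lists found no gene by name.

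**Figure D2:**
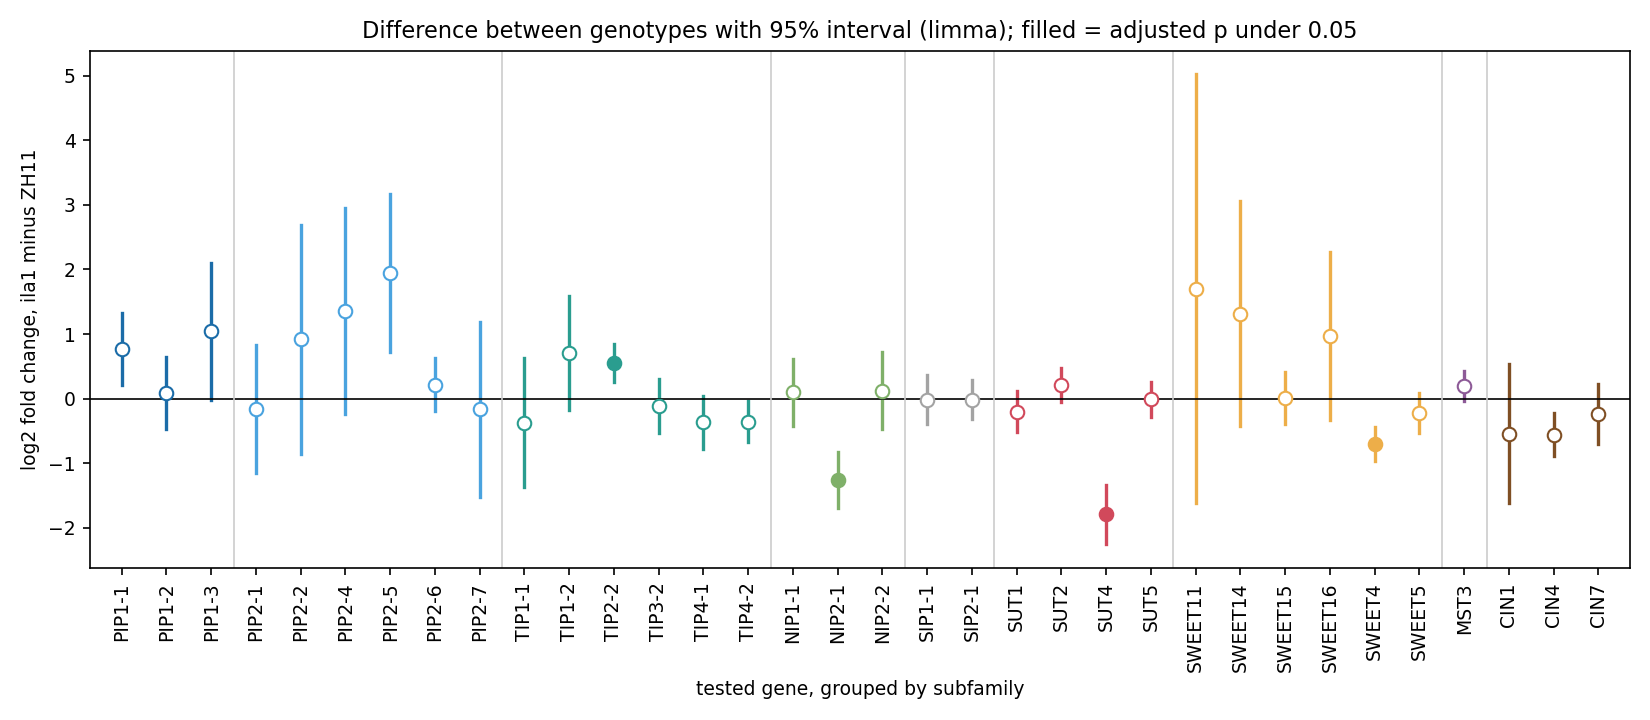
Difference between genotypes for each tested gene (log2 fold change, ila1 minus ZH11, on 1 probe set per gene), grouped and coloured by subfamily, with 95% intervals from limma. Filled points, adjusted p under 0.05, are TIP2-2 above 0 and NIP2-1, SUT4 and SWEET4 below, and the widest interval is that of SWEET11, from -1.62 to 5.02.

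Among NIP channels, NIP2-1 (LOC4330713), also Lsi1, fell 2.40-fold. Lsi1 is the silicic acid influx channel first known from rice roots. NIP2-1 read 496 and 587 in ZH11 and 194 and 239 in ila1, without overlap. The means were 541 ± 64.1 and 217 ± 31.9 (SD, n = 2 each), and the log2 fold change was -1.26 ± 0.17 (limma adjusted p = 0.0134). NIP2-2, also Lsi6, the related silicon channel of leaf sheaths and blades, read 1112 and 1275 against 1048 and 1611, which overlap. Its difference was 0.12, with a 95% interval from -0.47 to 0.72 that lies above the whole interval of NIP2-1, from -1.69 to -0.83. The difference between these 2 genes was not itself tested. The NIP2-2 probe set is of the type marked x, whose probes may also match other sequences. The silicon efflux carrier Lsi2 lay below the filter, at 12.4 to 15.1 on all 4 arrays. NIP1-1 read 469.7 and 398 against 393 and 545. NIP3-1, a boric acid channel also called DTE1, was below the filter, at 19.2 and 11.5 in ZH11 and 31.0 and 39.4 in ila1, and passed as higher with no filter (log2 fold change 0.72, limma adjusted p = 0.0417). NIP4-1 read 7.94 to 10.7.

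TIP2-2 (LOC4340941), a tonoplast aquaporin, was the member that rose. It read 2719 and 3192 in ZH11 and 4223 and 4431 in ila1. The genotypes did not overlap, although the ZH11 arrays were further from each other than the ila1 arrays. The rise was 1.47-fold, from 2956 ± 335 to 4327 ± 147 (SD, n = 2 each), with a log2 fold change of 0.55 ± 0.11 (limma adjusted p = 0.0371). Its probe set is of the type marked x, whose probes may also match other sequences, and the part of other transcripts in its signal was not tested. TIP2-1, the nearest relative by name, was below the filter and read 13.5 and 11.7 in ZH11 and 78.3 and 60.1 in ila1 on 1 of its probe sets. There it passed as higher with no filter on low values (log2 fold change 1.57, limma adjusted p = 0.00264). That probe set is of the type marked s, which may read several near-identical transcripts. The other TIP2-1 probe set, not of a shared type, read 19.6 and 29.7 against 44.5 and 42.6 and did not pass (limma adjusted p = 0.0643).

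The remaining TIP genes did not pass. TIP4-2 read 89.0 and 73.7 in ZH11 and 60.0 and 59.6 in ila1 (log2 fold change -0.36 ± 0.12, unadjusted p = 0.0331, limma adjusted p = 0.114). TIP4-1 was lower on both ila1 arrays on both of its probe sets, at 3371 and 4547 against 4894 and 5223 on the brighter one. On the weaker one it read 29.2 and 48.7 in ila1 against 49.5 and 49.5 in ZH11, so ila1 replicate 2 was almost level with ZH11. TIP1-1, a water channel of the vacuole, read 5862 and 6356 in ZH11, 3128 on ila1 replicate 1 and 7123 on ila1 replicate 2. Its other probe set gave 4547 and 4908 against 2437 and 5574. TIP1-2 read 101 and 117 against 129 and 273. TIP3-2 overlapped at 43.1 to 62.6, and TIP3-1 was below the filter at 8.43 to 13.8. The median over 6 tested TIP genes was -0.24, and it turned to 0.14 without ila1 replicate 1.

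No PIP gene passed, although 7 of the 9 tested had a log2 fold change above 0, as did 41.6% of all tested probe sets. PIP2-5 read 124 and 77.8 in ZH11 and 263 and 677 in ila1. The genotypes did not overlap, and the difference of 1.94 ± 0.47 (95% interval 0.72 to 3.16) missed the threshold (unadjusted p = 0.00963, limma adjusted p = 0.0571). It passed with arrays scaled to hybridization controls (2.13, limma adjusted p = 0.0409). PIP1-1, also called RWC1, read 2815 and 3052 against 4020.4 and 6200 (log2 fold change 0.77 ± 0.22, unadjusted p = 0.0174, limma adjusted p = 0.0791). PIP1-1 passed as higher after quantile normalization (0.98, limma adjusted p = 0.0398) and with arrays scaled to hybridization controls (0.98, limma adjusted p = 0.0340). PIP1-3, also RWC3, was above ZH11 on both ila1 arrays, at 481 and 1132 against 383 and 322 (limma adjusted p = 0.15). PIP2-6 read 1204 and 1439 against 1696 and 1379, and PIP2-8 was below the filter at 32.7 to 37.1. The median over the tested PIP genes was 0.77, ran from 0.40 without ila1 replicate 2 to 1.08 without ila1 replicate 1, and was above 0 under every scaling.

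PIP2-4, PIP2-5 and PIP2-1 are neighbours on a chromosome in the RefSeq gene table, with 1 gene between PIP2-4 and PIP2-5 and 0 between PIP2-5 and PIP2-1. PIP2-4 read 58.6 and 55.0 in ZH11, 80.2 on ila1 replicate 1 and 343 on ila1 replicate 2. PIP2-4 and PIP2-5 were above ZH11 on both ila1 arrays, whereas PIP2-1 was so only on ila1 replicate 2 on its brighter probe sets. PIP2-1 read 3579 and 3784 in ZH11 against 2183 and 4934 on one, and 3306 and 3545 against 1807 and 4221 on another. Each of these genes read higher on ila1 replicate 2 than on ila1 replicate 1. The log2 gap was 1.17 and 1.22 on these PIP2-1 probe sets, 1.31 in PIP2-5 and 1.90 in PIP2-4. On a weaker probe set, which is not of a shared type, it read 228 and 238 against 280 and 369 (log2 fold change 0.44, limma adjusted p = 0.145). The probe sets of PIP2-1 therefore disagreed in sign.

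The SIP aquaporins overlapped between genotypes. SIP1-1 read 1026 and 1245 against 1058 and 1184, and SIP2-1 107.99 and 99.4 against 98.5 and 106. Their differences were -0.014 and -0.016, with 95% intervals from -0.39 to 0.36 and from -0.32 to 0.29.

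The ila1 arrays disagreed on many of these genes, most of all on PIP and SWEET genes. They were at least 2-fold apart on the log2(signal + 16) scale for 16 of the 44 tested member probe sets (12 of 36 genes), against 3.14% of all tested probe sets. The ZH11 arrays were so far apart for 1 of the 44, that of HSFA2C, against 0.262%. Of the 16, 13 were higher on ila1 replicate 2 and 3 on ila1 replicate 1, where 1.92% and 1.22% of all tested probe sets were. PIP genes held 8 of the 16, SWEET genes 4, TIP1-1 2, and CIN1 and HSFA2C 1 each. Several of these probe sets read the same gene, so they are not separate observations. The 4 of SWEET genes include both probe sets of SWEET14, which were tested only through their ila1 signal. Both are among the 3 that were higher on ila1 replicate 1. The median gap over tested PIP genes was 1.21 in ila1 and 0.12 in ZH11, on the log2 scale. Over all tested probe sets these medians were 0.18 and 0.10, and over tested SUT genes 0.16 and 0.050.

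**Figure D3:**
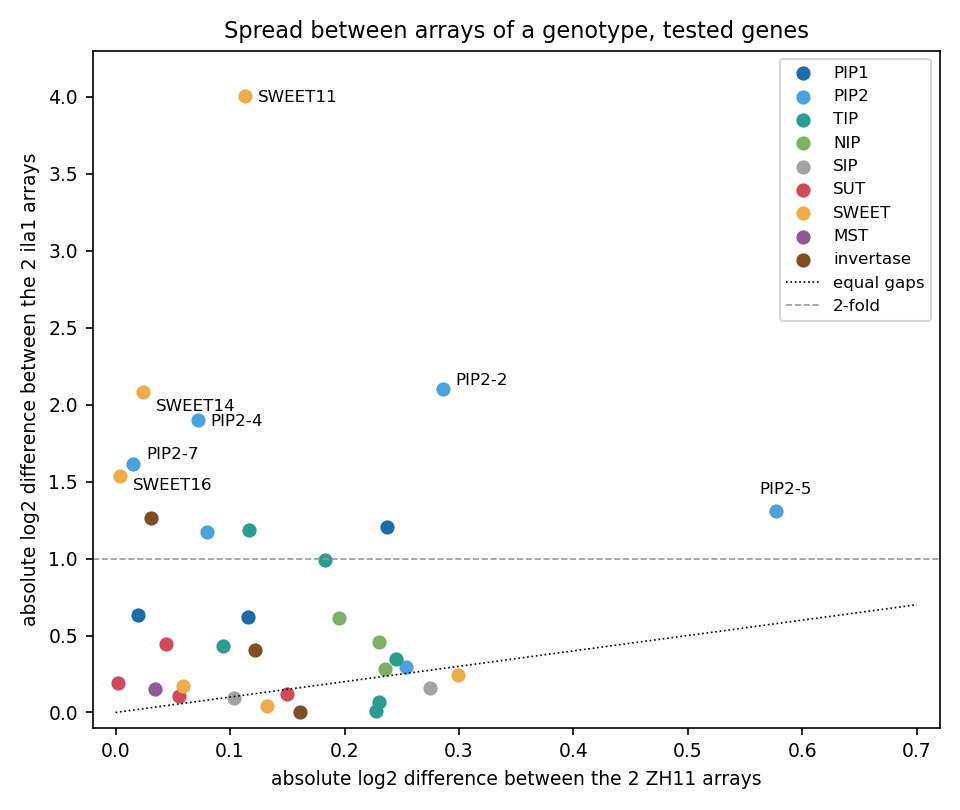
Absolute log2 difference between the 2 arrays of ZH11 (horizontal) and of ila1 (vertical) for each tested gene, coloured by subfamily. The dotted line marks equal gaps and the dashed line a 2-fold gap. The brightest probe set of each gene is plotted, without HSFA2C and FLO6. SWEET11 stands highest, at 4.01 in ila1 and 0.11 in ZH11, and no plotted gene reaches 2-fold in ZH11.

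The widest of these gaps was that of SWEET11, whose ila1 arrays were 16.1-fold apart on this scale, on a probe set of the type marked s. PIP2-2 read 604 and 493 in ZH11, 496 on ila1 replicate 1 and 2184 on ila1 replicate 2, a 4.29-fold gap with 16 added. That probe set is also of the type marked s. The weaker PIP2-2 probe set, not of a shared type, had the same order at 42.7 and 125, a 2.41-fold gap with 16 added. PIP2-7 went the other way, at 2335 and 2309 in ZH11, 3632 on ila1 replicate 1 and 1173 on ila1 replicate 2. On 12 of the 44 probe sets 1 ila1 array lay above and the other below both ZH11 arrays, against 12.4% of all tested probe sets. The 10 genes so read were NIP1-1, NIP2-2, PIP1-2, PIP2-1, PIP2-2, PIP2-7, TIP1-1, SWEET11, CIN1 and HSFA2C. PIP1-2, for example, read 5595 and 5519 in ZH11 and 4755 and 7399 in ila1. For these genes the direction of a difference between genotypes depended on the ila1 array. The 4 called genes had narrower gaps than these 10. Their ila1 arrays differed by 0.45 in SUT4, 0.28 in NIP2-1, 0.17 in SWEET4 and 0.069 in TIP2-2 on the log2 scale. The limma test sets a difference against the spread within genotypes, so a narrow gap is part of being called. The gap of SUT4 was near that of NIP1-1 (0.46) and near the median over tested member genes (0.44). Those of SUT4 and NIP2-1 were above the median over all tested probe sets (0.18).

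**Figure D4:**
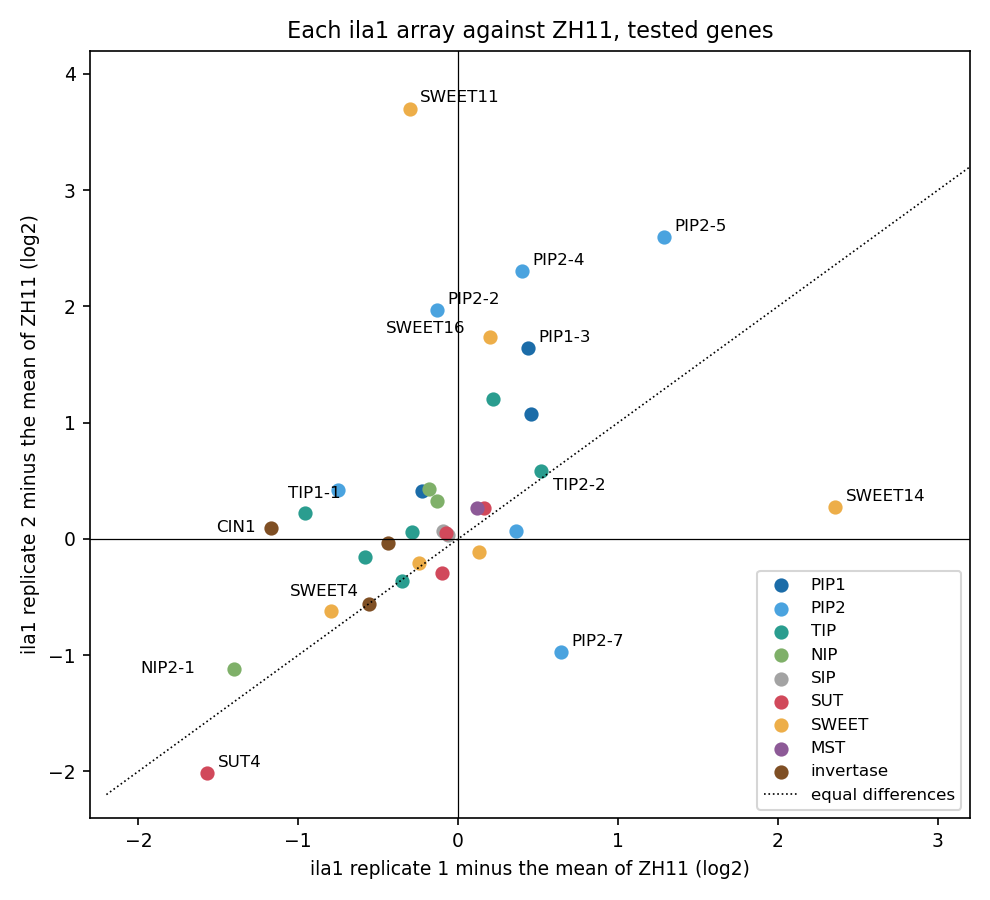
Log2 difference of each ila1 array from the mean of the ZH11 arrays, ila1 replicate 1 on the horizontal axis and ila1 replicate 2 on the vertical axis, for each tested gene. SUT4, NIP2-1, SWEET4 and TIP2-2 lie near the dotted line of equal differences, SWEET11 lies at -0.30 and 3.70, and PIP2-7 at 0.64 and -0.98.

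Genes of photosynthesis also differed between the ila1 arrays. Of 26 genes on that list 5 had a probe set and 4 were tested. On their brightest probe sets all 4 were higher on ila1 replicate 2 than on ila1 replicate 1, by a median of 0.82. The gap was 0.25 for RBCS, and a weaker probe set of PSAG was even, at 37.3 and 36.4. The 5 genes summed to 20139 and 21200.2 on the ZH11 arrays, 14792 on ila1 replicate 1 and 22382 on ila1 replicate 2. None of the 4 tested genes passed between genotypes in the limma test. Ribosomal protein genes were even, with a median gap of 0.065 between the ila1 arrays over 18 genes and sums from 63990 to 68604. The 13 tested genes of dividing cells had a median difference of -0.21 between ila1 replicate 2 and ila1 replicate 1. The 17 genes of that list with a probe set had sums from 1732 to 2095. Between genotypes 2 of the 13, the cyclin genes CYCA1-4 and CYCD5-2, rose and 2, CYCD5-3 and CYCD6-1, fell. CYCD5-3, at 606 and 688 in ZH11 and 262 and 181 in ila1, was the brightest of the list in ZH11. CYCB1-1 and CYCB1-3 lay below the filter, at 17.5 to 29.1 and 7.51 to 12.8. Over all tested probe sets 4.71% rose and 10.4% fell. Secondary wall genes summed to 3498 and 3680 in ZH11 and to 2550 and 2560 in ila1, and IRX9 and IRX14, 2 of 6 genes, fell. IRX9L was lower on both ila1 arrays without passing (log2 fold change -0.48, limma adjusted p = 0.0574). The cellulose synthase genes did not pass, at -0.21 for CESA4, -0.079 for CESA7 and 0.20 for CESA9. The median of the secondary wall list was -0.34, beside -0.074 over all tested probe sets. The part of these lists in the members' values was not tested, and the cuticle and phloem lists found no gene by name.

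The 3 genes that share only a name with these families passed in no direction. FLO6 read 196 and 221 in ZH11 and 176 and 201 in ila1, and BHLH142 was below the filter at 7.25 to 12.6. HSFA2C read 604 and 572 against 377 and 801 on its brighter probe set. On its other probe set HSFA2C read 524 and 156 in ZH11 and 80.9 and 103 in ila1, and the difference of -1.51 ± 0.55 did not pass (unadjusted p = 0.0412, limma adjusted p = 0.129).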

How the data were processed

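Lamina joint RNA of 2 ZH11 and 2 ila1 samples was extracted with TRIzol and labelled by the standard Affymetrix protocol, per the labels' protocols. Each deposited array holds 1 intensity per probe set on a linear scale. Which software and scaling made it is not given in the sources used here. Groups follow the sample titles.

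The 123 control probe sets were left out, 16 was added and log2 taken, and limma 3.58.1 in R 4.3.3 (lmFit, eBayes with trend, two-sided, genotype as the only term, Benjamini-Hochberg over 34355 probe sets) gave the tests. The prior was worth 2.91 and the residual 2 degrees of freedom. The fit was tested on simulated data. Tables and plots used Python 3.11.15, pandas 2.3.3 and matplotlib 3.10.9.

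Genes were named through the platform annotation and the RefSeq table of assembly ASM3414082v1, used for names and gene order only, and no sequence is printed. Subfamily values use the brightest probe set of a gene. Values on each array are given for members that passed or had an unadjusted p under 0.05, the brightest of each subfamily, and, chosen after values were seen, other members. Of the sucrose metabolism and trehalose lists, at most 3 genes that passed are named, by smallest p. Lsi2 and genes of the tissue and cell lists are named whether or not they passed, some chosen after values were seen. Members, lists and alternatives were chosen with earlier results of these data known. The list names were turned into symbol patterns, and genes of another family with the same symbol were dropped. Alternatives were 3 other scalings, a pseudocount of 64, no filter, a replicate block, the mean of a gene's probe sets and each array left out.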

Additional observations from a re-analysis of the deposited data

How the results depend on the processing

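SUT4, NIP2-1, SWEET4 and TIP2-2 kept their direction under every alternative run, and their calls under all but the fits without a ZH11 array, where each lost its call. Over all tested probe sets, calls as reported were 1619 higher and 3572 lower. They were 2926 and 2863 after quantile normalization, 2980 and 2345 when scaled to hybridization controls, and 2083 and 3066 after median centring. With 1 array left out they ran from 5 to 6380 and from 17 to 8420. Member probe sets higher in ila1 (1 as reported) were 4 and 4 under those scalings, 3 with no filter and 0 to 20 with 1 array left out. Those lower (3 as reported) ran from 0 to 15. Same-numbered arrays deviated together only weakly (correlation 0.10 across probe sets) and no label pairs them. With the replicate block 2 member probe sets were higher, PIP1-1 being added (limma adjusted p = 0.0474), and no other member's call changed.

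Medians with arrays scaled to hybridization controls were 0.18 for SIP, 0.075 for SUT and for all sugar genes, 0.66 for SWEET, 0.41 for MST and -0.33 for invertases. After quantile normalization they were 0.14 for SIP, 0.026 for SUT and for all sugar genes and 0.39 for MST. Median centring gave -0.038 for SUT. A pseudocount of 64 gave 0.34 for SWEET. No filter gave 0.0080 for SWEET and -0.24 for invertases. With 1 array left out, medians ran from -0.32 to 0.14 for TIP, -0.18 to 0.32 for NIP, -0.056 to 0.56 for SWEET, -0.56 to -0.033 for invertases, -0.11 to 0.37 for aquaporins and -0.17 to 0.0082 for sugar genes.

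The genes whose sign turned were not called as reported. With arrays scaled to hybridization controls PIP2-1 read 0.049, PIP2-7 0.046, SIP1-1 0.20, SIP2-1 0.17, SUT1 0.011, SUT5 0.14, TIP3-2 0.048, FLO6 0.066 and HSFA2C 0.12. After quantile normalization PIP2-1 read 0.049, PIP2-7 0.10, SIP1-1 0.21, SIP2-1 0.060, SUT1 0.0069, SUT5 0.045 and HSFA2C 0.071. Median centring gave SIP1-1 0.054, SIP2-1 0.052 and SUT5 0.055. With 1 array left out the range was -0.13 to 0.32 for NIP1-1, -0.18 to 0.43 for NIP2-2, -0.22 to 0.41 for PIP1-2, -0.75 to 0.42 for PIP2-1, -0.13 to 1.97 for PIP2-2 and -0.98 to 0.64 for PIP2-7. It was -0.15 to 0.12 for SIP1-1, -0.068 to 0.036 for SIP2-1, -0.087 to 0.062 for SUT5, -0.30 to 3.70 for SWEET11 and -0.14 to 0.16 for SWEET15. It was -0.96 to 0.22 for TIP1-1, -0.29 to 0.057 for TIP3-2, -0.62 to 0.44 for HSFA2C and -1.17 to 0.093 for CIN1. The cause of these shifts was not tested. No detection call was used, so low signals are not set against background.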
